A study of Homo sapiens with 18 samples.

Results

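The genes described here are 9 members of the STAT and SOCS families, taken by gene symbol: STAT2, STAT3, STAT4, STAT5A, STAT5B and STAT6, the suppressors of cytokine signalling SOCS2 and SOCS3, and CISH, which belongs to the SOCS family by its structure. They are a chosen part of these families, and 5 other measured STAT and SOCS genes are described further below. Of the 9 members, 8 had a probe that passed the detection filter, among 13505 genes measured in all. STAT2 had 0 probes under its symbol in the annotation used and was not analysed here. STAT3 was read by 3 probes, SOCS2 and SOCS3 by 2 each and the other 5 genes by 1 each.

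The samples were U2OS cells, a human osteosarcoma line, carrying a stably integrated vector that expresses either estrogen receptor beta (ERβ) or estrogen receptor alpha (ERα) when doxycycline is added. Each line was sampled in 3 states, namely with doxycycline plus E2 (the usual abbreviation for estradiol), with doxycycline alone and without doxycycline. This gave 6 groups of 3 single-colour Illumina arrays, 18 in all. All 6 groups carry a vector, so no array shows U2OS cells without one, and the labels give no dose, no time of treatment and no statement on whether a line is 1 clone. Nothing in the labels ties the arrays of 1 group to different cultures, so each p-value reflects array-to-array spread that could be purely technical.

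STAT proteins are transcription factors that wait in the cytoplasm. Cytokine and hormone receptors activate JAK kinases, which phosphorylate the receptor and then the docked STAT, and phosphorylated STAT dimers enter the nucleus and bind short palindromes called GAS elements. SOCS proteins and CISH are made in response to STAT activity and shut the same receptors down, so their transcripts are widely read as feedback targets, CISH and SOCS2 mainly of STAT5 and SOCS3 mainly of STAT3. Transcript levels of a STAT gene do not report its phosphorylation, on which its activity depends.

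RefSeq promoter windows (GRCh38.p14, 250 bases before to 50 bases after a transcript start) were read for 8 of the 9 genes, all but SOCS2, and gave 12 windows. They were searched on both strands for the GAS element TTCNNNGAA, for the full estrogen response element, the palindrome that estrogen receptors bind as dimers (GGTCA, any 3 bases, then TGACC), and for a single arm of it, GGTCA, which every full element also holds. The CISH window and the first of 2 STAT4 windows are printed because these 2 genes had the widest range of group means, with matches in capitals, GAS elements in CISH and single arms in STAT4. Each runs 5′ to 3′ on the gene's strand. The CISH window lies at chr3:50611725-50612024 on the minus strand, and the printed STAT4 window at chr2:191151547-191151846, also on the minus strand.
CISH: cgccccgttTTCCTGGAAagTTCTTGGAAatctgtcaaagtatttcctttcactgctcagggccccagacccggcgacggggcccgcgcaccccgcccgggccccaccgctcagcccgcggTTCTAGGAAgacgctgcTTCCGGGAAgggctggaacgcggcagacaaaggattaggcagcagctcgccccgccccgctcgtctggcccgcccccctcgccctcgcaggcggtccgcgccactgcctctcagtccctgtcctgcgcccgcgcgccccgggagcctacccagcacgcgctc
STAT4: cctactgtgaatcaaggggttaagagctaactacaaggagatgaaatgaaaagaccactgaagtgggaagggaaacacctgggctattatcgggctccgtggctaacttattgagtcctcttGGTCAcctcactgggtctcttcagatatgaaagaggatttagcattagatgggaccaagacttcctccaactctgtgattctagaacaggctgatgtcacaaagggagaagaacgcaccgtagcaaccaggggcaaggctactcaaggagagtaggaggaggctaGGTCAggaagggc

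The CISH window held 4 GAS elements, TTCCTGGAA, TTCTTGGAA, TTCTAGGAA and TTCCGGGAA, whose first bases lie at -241, -230, -129 and -112 from the start. No other member window held one (1 of 12), while 7.66% of all 35116 promoters did and 7 promoters held 4 or more. The full estrogen response element was in 0 of the 12 windows and in 0.057% of all promoters. The single arm was in 7 of the 12 windows and in 37.4% of all promoters, and the printed STAT4 window held it at -128 and at 37. The second STAT4 window, not printed, held it once, at -129 on the other strand. Such a match is a string of letters and not evidence of binding.

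Levels are on a log2 scale after background correction and quantile normalization, and a probe counted as detected on an array at a detection p below 0.01, where levels began at 6.08 to 6.52. Between 19834 and 22485 probes, 40.6% to 46.1%, were detected per array, and the number of arrays limits the precision. All 10 measured markers of mesenchymal or osteoblast cells were detected on every array, with a summed signal of 79743 to 87399 in the ERβ line and 111530 to 124940 in the ERα line. Of markers of other cell types, 2 or 3 of 5 blood cell genes per group were detected on all 3 arrays, 2 of 4 endothelial genes and 4 to 6 of 7 epithelial genes. The summed blood cell signal was 2578 to 3300 in the ERβ line and 5316 to 6709 in the ERα line. The summed endothelial signal was 3393 to 4170 with E2 in ERβ cells, against 2102 to 2659 with doxycycline alone. In ERα cells it was 3806 to 4627 with E2, against 1503 to 1669. Of the 4 endothelial genes, 1 passed the test given below as higher with E2 in each line and 0 as lower. Their median level was 7.18 with E2 against 7.37 in ERβ cells, and 7.18 against 7.25 in ERα cells. The summed epithelial signal was 12028 to 16589 in the ERβ line and 21168 to 31984 in the ERα line, where it was 21168 to 23433 with E2, against 24332 to 31984 with doxycycline alone. The part of these signals in the results was not tested. ESR2, the gene of ERβ, stood at 16.04 ± 0.01, 15.94 ± 0.14 and 11.26 ± 0.14 in ERβ cells with doxycycline plus E2, with doxycycline and without it (SD, n = 3 each), so the vector was already read without doxycycline. The single ESR1 probe lay near background in every group, at 6.34 ± 0.29, 5.76 ± 0.29 and 6.22 ± 0.47 in the ERα line in the same order, and since no source used here places it relative to the vector's insert, ERα induction goes unchecked. In RNA from whole cultures, fewer cells that express a gene and less RNA per cell cannot be told apart.

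**Figure D1:**
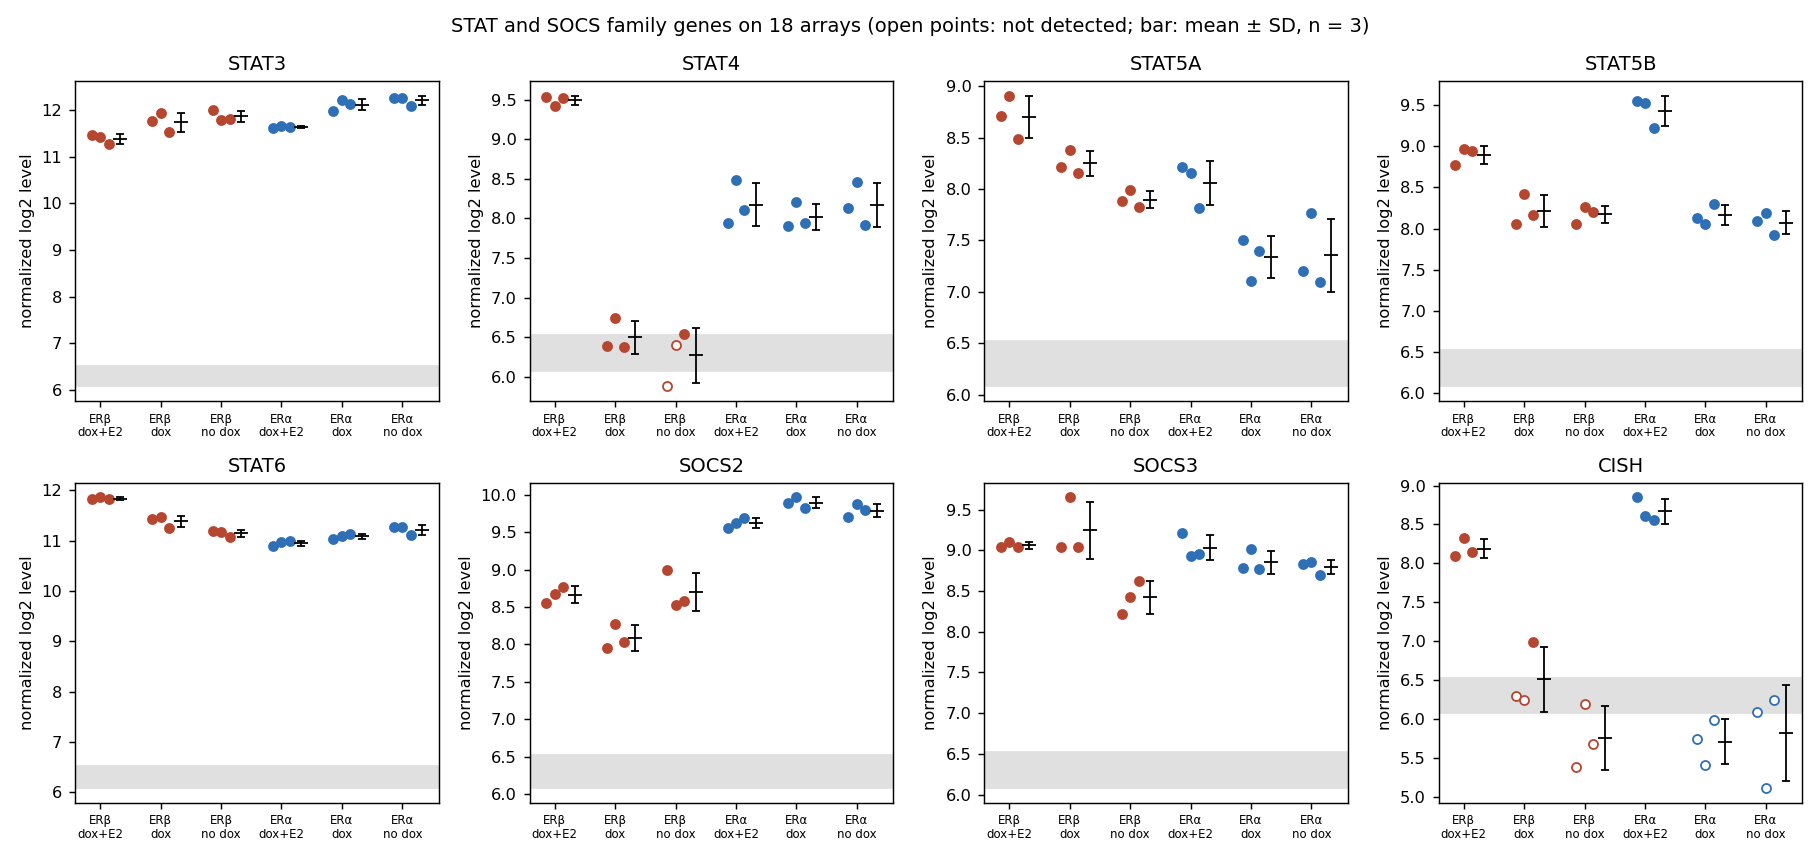
Normalized log2 level of each of the 8 measured STAT and SOCS family genes (y axis, not starting at 0) in the 6 groups (x axis), 1 point per array, with mean ± SD (n = 3). Open points are arrays on which the probe was not detected, and the grey band spans 6.08 to 6.52, where detected levels began. STAT4 reaches 9.49 only in ERβ cells with doxycycline plus E2, and CISH is above the band in both E2 groups.

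The E2 comparisons asked what E2 changes when the receptor vector is induced. In ERβ cells, E2 raised STAT4, CISH, STAT5B, SOCS2 and STAT6 and lowered STAT3, so 6 of the 8 genes changed, against 13.8% of all genes tested (5 higher against 6.98%, 1 lower against 6.84%). In ERα cells, E2 raised CISH, STAT5B and STAT5A and lowered STAT3, 4 of 8 genes against 22% of all genes (3 higher against 10.9%, 1 lower against 11.1%). CISH was detected on 7 of the 18 arrays and passed the detection filter only through the E2 groups. Its place among the 8 genes thus rests on the arrays in which it was called higher. The members were chosen with earlier results of these data known, so this and the later counts of members are a description and no test of the families. With 1 array left out in turn, the count of members called was 5 to 7 in the ERβ line and 4 in the ERα line. Without all arrays of 1 replicate number it was 2 to 5 in the ERβ line and 2 to 4 in the ERα line, in each line lowest without replicate 1. In ERβ cells CISH, STAT5B and STAT6 lost their calls without replicate 1 (adjusted p = 0.0523, 0.0542 and 0.0569). SOCS2 lost its call there without replicate 3 (0.111), and STAT3 whichever number was left out. In ERα cells STAT5A lost its call without replicate 1 (0.108) and STAT3 without 1 or 2. STAT4 in ERβ cells, and CISH and STAT5B in ERα cells, kept their calls in each of these fits. The median change over the 8 genes was 0.52 in the ERβ line, where the median over all genes was -0.03, and 0.17 in the ERα line, where it was also -0.03. Taken gene by gene, the median of the difference between these responses, ERβ minus ERα, was -0.08, beside 0.00 over all genes. Changes are differences of group means on the log2 scale, each with its standard error (SE), from 1 limma fit of all 18 arrays with Benjamini-Hochberg adjustment over the 13505 genes and a 2-sided threshold of 0.05.

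STAT4, the transcription factor that carries interleukin 12 signals in T and natural killer cells, had levels of 9.53, 9.42 and 9.51 in ERβ cells with doxycycline plus E2, against 6.39, 6.74 and 6.37 with doxycycline alone. Its 3 E2 arrays lay close together and far above all other arrays of the series. The rise was 2.99 ± 0.19 (7.94-fold, adjusted p = 5.16e-08). In ERα cells the levels were 7.94, 8.48 and 8.10 with E2, against 7.91, 8.21 and 7.94 with doxycycline alone. These groups overlapped, and the difference of 0.16 (95% interval -0.24 to 0.55) did not pass the test (adjusted p = 0.648). The E2 responses of the lines differed by 2.83 ± 0.26 (adjusted p = 6.25e-06, ERβ minus ERα). Without background correction the rise in ERβ cells was 1.76 (adjusted p = 1.11e-09) and the difference 1.66 (4.6e-07).

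The lines also differed in STAT4 before any treatment. Without doxycycline, STAT4 stood at 5.88, 6.40 and 6.54 in ERβ cells, where only array 3 was called detected, and at 8.13, 8.46 and 7.91 in ERα cells. The difference was -1.89 ± 0.19 (adjusted p = 7.23e-07), and -0.88 without background correction. Doxycycline alone moved STAT4 by 0.23 in ERβ cells (adjusted p = 0.452) and by -0.15 in ERα cells (adjusted p = 1). The order of the 6 groups therefore ran from ERβ with E2 at the top, through the 3 overlapping ERα groups, to ERβ with and without doxycycline, which overlapped.

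STAT5B and STAT5A encode near-identical factors that carry growth hormone, prolactin and many interleukin signals, and with STAT3 they form a run of 3 consecutive protein-coding genes on chromosome 17. STAT5B had levels of 8.78, 8.97 and 8.94 in ERβ cells with E2, against 8.05, 8.42 and 8.16 with doxycycline alone, a rise of 0.68 ± 0.12 (adjusted p = 0.00103). In ERα cells it stood at 9.56, 9.52 and 9.22 with E2, against 8.13, 8.06 and 8.30, a rise of 1.27 ± 0.12 (2.41-fold, adjusted p = 1.28e-06). In both lines every E2 array was above every doxycycline array. The 4 groups without E2 overlapped between 7.92 and 8.42, and the E2 group of ERα cells was the highest of all.

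The STAT5B rise was smaller in the ERβ line, by -0.59 ± 0.17 (adjusted p = 0.0435), a narrow call. It was lost with 12 of the 18 arrays left out in turn (adjusted p 0.0529 to 0.114), namely ERα arrays 1, 4, 5, 7 and 8 and ERβ arrays 2, 3, 5, 6, 7, 8 and 9, and also with median scaling, with no detection filter and with only the compared arrays in the fit (0.0866, 0.0674 and 0.0728). In each line, arrays 1 to 3 are those without doxycycline, 4 to 6 those with it and 7 to 9 those with E2 added.

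STAT5A rose in ERα cells, where it stood at 8.21, 8.16 and 7.82 with E2, against 7.50, 7.11 and 7.40 with doxycycline alone (0.72 ± 0.17, adjusted p = 0.00542, and 0.47 on the authors' processed values). In ERβ cells the levels were 8.72, 8.90 and 8.49 with E2, against 8.21, 8.38 and 8.16, which do not overlap. That difference of 0.45 ± 0.17 did not pass (adjusted p = 0.0987), though it did without ERα array 2 (0.0382), with the replicate number as a block (0.0467), on the authors' processed values (0.00575) and without background correction (0.0465). With doxycycline alone the ERβ change was 0.35 ± 0.17 (adjusted p = 0.167), which passed on the authors' values (0.0314). The responses of the lines to E2 differed by -0.27 (95% interval -0.78 to 0.24, adjusted p = 0.645). Without doxycycline, STAT5A was higher in the ERβ line, at 7.88, 7.99 and 7.82, than in the ERα line, at 7.20, 7.76 and 7.10 (0.54 ± 0.17, adjusted p = 0.0141), a call lost without ERα array 1 or 3 (0.0577 and 0.0707) and with only the compared arrays in the fit (0.0519).

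STAT6, the factor of interleukin 4 and interleukin 13 signalling, rose in steps in the ERβ line. Its levels were 11.83, 11.86 and 11.82 with doxycycline plus E2, 11.43, 11.47 and 11.26 with doxycycline alone and 11.19, 11.17 and 11.07 without it. None of these 3 groups overlapped. The E2 step was 0.45 ± 0.08 (adjusted p = 0.000707) and the doxycycline step 0.24 ± 0.08 (adjusted p = 0.0319). In ERα cells STAT6 stood at 10.89, 10.97 and 10.99 with E2, 11.03, 11.09 and 11.13 with doxycycline and 11.27, 11.27 and 11.11 without it, and neither step of -0.13 passed (adjusted p = 0.247 and 1).

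Both STAT6 responses differed between the lines, that to E2 by 0.58 ± 0.11 (adjusted p = 0.00221) and that to doxycycline by 0.37 ± 0.11 (adjusted p = 0.0377). The doxycycline step in ERβ cells was lost without any of ERβ arrays 1 to 5 (0.0515 to 0.111), with median scaling (0.0607), with no detection filter (0.0619) and with only the compared arrays in the fit (0.178). Its difference between lines was lost with the same 3 settings (0.143, 0.0726 and 0.117) and without any of 11 arrays, ERα 1, 2, 4, 5 and 8 and ERβ 1, 2, 3, 4, 5 and 7 (0.0507 to 0.0929).

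STAT3, the factor of interleukin 6 family signals, was the STAT gene that fell with E2 in both lines. In ERβ cells its brightest probe stood at 11.46, 11.43 and 11.26 with E2, against 11.75, 11.93 and 11.53 with doxycycline alone (-0.35 ± 0.11, adjusted p = 0.0375). In ERα cells it stood at 11.62, 11.66 and 11.65, against 11.98, 12.22 and 12.13 (-0.47 ± 0.11, adjusted p = 0.00444). The groups did not overlap in either line, and the responses differed by 0.11 (95% interval -0.20 to 0.43, adjusted p = 0.795).

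The fall of STAT3 in ERα cells was seen by its other probes at -0.52 (adjusted p = 0.0137 over all kept probes) and -0.50 (0.0504). In ERβ cells they gave -0.28 and -0.27 with overlapping groups (0.27 and 0.438). The ERβ call was lost without ERα array 7 or ERβ arrays 4, 5, 7, 8 or 9 (0.0504 to 0.155), with no detection filter (0.0603), with the mean of the 3 probes (0.136) and with only the compared arrays in the fit (0.181). Without doxycycline the brightest probe was lower in the ERβ line (-0.34 ± 0.11, adjusted p = 0.0144), while the other 2 probes gave -0.0049 and -0.08 (0.983 and 0.751). That call was lost without ERβ array 2 (0.0572), with median scaling (0.0939) and with the mean of the probes (0.364).

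CISH, which blocks STAT5 docking at cytokine receptors, was the feedback gene with the widest range. With E2 it was detected on all 3 arrays of each line, at 8.10, 8.33 and 8.14 in ERβ cells and at 8.85, 8.61 and 8.55 in ERα cells. With doxycycline alone it stood at 6.29, 6.25 and 6.99 in ERβ cells, where only array 6 was detected, and at 5.74, 5.40 and 5.98 in ERα cells, where none was. Without doxycycline it was not detected on any array of either line. E2 raised CISH by 1.68 ± 0.28 in ERβ cells (adjusted p = 0.000748) and, against the detection limit of the ERα doxycycline arrays, at least 5.11-fold in ERα cells (fitted 2.96 ± 0.28, adjusted p = 1.45e-06). On the authors' processed values the 2 rises were 0.95 and 1.64 (adjusted p = 1.47e-05 and 5.77e-09).

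Whether the CISH responses differed between the lines depended on the setting. The fitted difference was -1.28 ± 0.40 (adjusted p = 0.0638), and it passed without ERα array 2 (0.0198), on the authors' values (0.0111), without background correction (0.0214) and with only the compared arrays in the fit (0.0196). In ERβ cells doxycycline alone gave a fitted 0.76 ± 0.28 with groups that do not overlap (adjusted p = 0.0733), at least 1.07-fold against the detection limit of the arrays without doxycycline, which passed without ERα array 2 (0.0265) or ERβ array 2 (0.0387). The fitted difference of the doxycycline responses, 0.86 (adjusted p = 0.229), passed without ERα array 2 (0.0361), an array where CISH read 5.11. These fitted values start from arrays below detection.

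SOCS2, known as a brake on growth hormone signalling, moved in opposite directions with doxycycline and with E2 in the ERβ line. It stood at 8.55, 8.67 and 8.77 with doxycycline plus E2, at 7.95, 8.28 and 8.04 with doxycycline alone and at 8.99, 8.52 and 8.58 without it. The doxycycline group lay below both others, and the E2 and untreated groups overlapped. The E2 change was 0.58 ± 0.12 (adjusted p = 0.00341) and the doxycycline change -0.61 ± 0.12 (adjusted p = 0.00174), and the 2 comparisons share the 3 doxycycline arrays. The second SOCS2 probe gave 0.64 (adjusted p = 0.0309 over all kept probes) and -0.47 (0.0963), with the doxycycline group detected on 1 of 3 arrays. Without background correction the brighter probe gave 0.38 and -0.40.

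In ERα cells SOCS2 stood at 9.56, 9.62 and 9.69 with E2, at 9.89, 9.97 and 9.83 with doxycycline and at 9.70, 9.88 and 9.79 without it. Its change of -0.27 with E2 did not pass (adjusted p = 0.124), but did on the authors' values (-0.24, 0.0398). The second probe gave -0.05 with E2 there, with overlapping groups (0.932 over all kept probes). The response to E2 was higher in the ERβ line by 0.85 ± 0.17 (adjusted p = 0.00402) and that to doxycycline lower by -0.72 ± 0.17 (adjusted p = 0.0118). For these differences the second probe gave 0.69 and -0.56, and neither passed (adjusted p = 0.148 and 0.246 over all kept probes). The doxycycline change in ERβ cells did not pass with only the compared arrays in the fit (0.0571), nor did the difference of the doxycycline responses with median scaling (0.0539). Every ERβ array lay below every ERα array, and without doxycycline the gap was -1.09 ± 0.12 (adjusted p = 2.09e-06), seen by the second probe at -0.95 (0.000491).

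SOCS3, the main brake on interleukin 6 family receptors, rose with doxycycline in ERβ cells and did not pass the test with E2 in either line. In ERβ cells it stood at 9.04, 9.65 and 9.04 with doxycycline, against 8.21, 8.43 and 8.63 without it (0.82 ± 0.15, adjusted p = 0.00113). The groups did not overlap, and without the high ERβ array 5 the rise was 0.62 (adjusted p = 0.0029). The second probe, near the detection limit, gave 0.26 with overlapping groups (adjusted p = 0.656 over all kept probes), and the mean of both probes gave 0.54 (0.0385). With E2 added the level was 9.04, 9.11 and 9.04, a difference of -0.18 from doxycycline alone (95% interval -0.51 to 0.14, adjusted p = 0.563).

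In ERα cells SOCS3 stood at 9.21, 8.93 and 8.95 with E2, 8.78, 9.01 and 8.77 with doxycycline and 8.83, 8.85 and 8.69 without it, and neither change passed (adjusted p = 0.48 and 1). The doxycycline responses differed by 0.76 ± 0.21 (adjusted p = 0.0361). This call was lost without any of 7 arrays, ERα 1, 2, 4 and 6 and ERβ 1, 2 and 5 (0.0515 to 0.0955), with no detection filter (0.053), with the mean of the probes (0.0816) and with only the compared arrays in the fit (0.0946). Without doxycycline the ERβ line was lower by -0.37 ± 0.15, which did not pass (adjusted p = 0.0548) but did without ERβ array 3, 5 or 6 (0.0122 to 0.0488), with the replicate number as a block (0.0428), on the authors' values (0.0245) and over probes detected on all arrays (0.0436). It passed in 7 of the 30 other fits tried, and elsewhere the adjusted p reached 0.374. The second probe gave -0.34 with overlapping groups (0.385 over all kept probes).

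**Figure D2:**
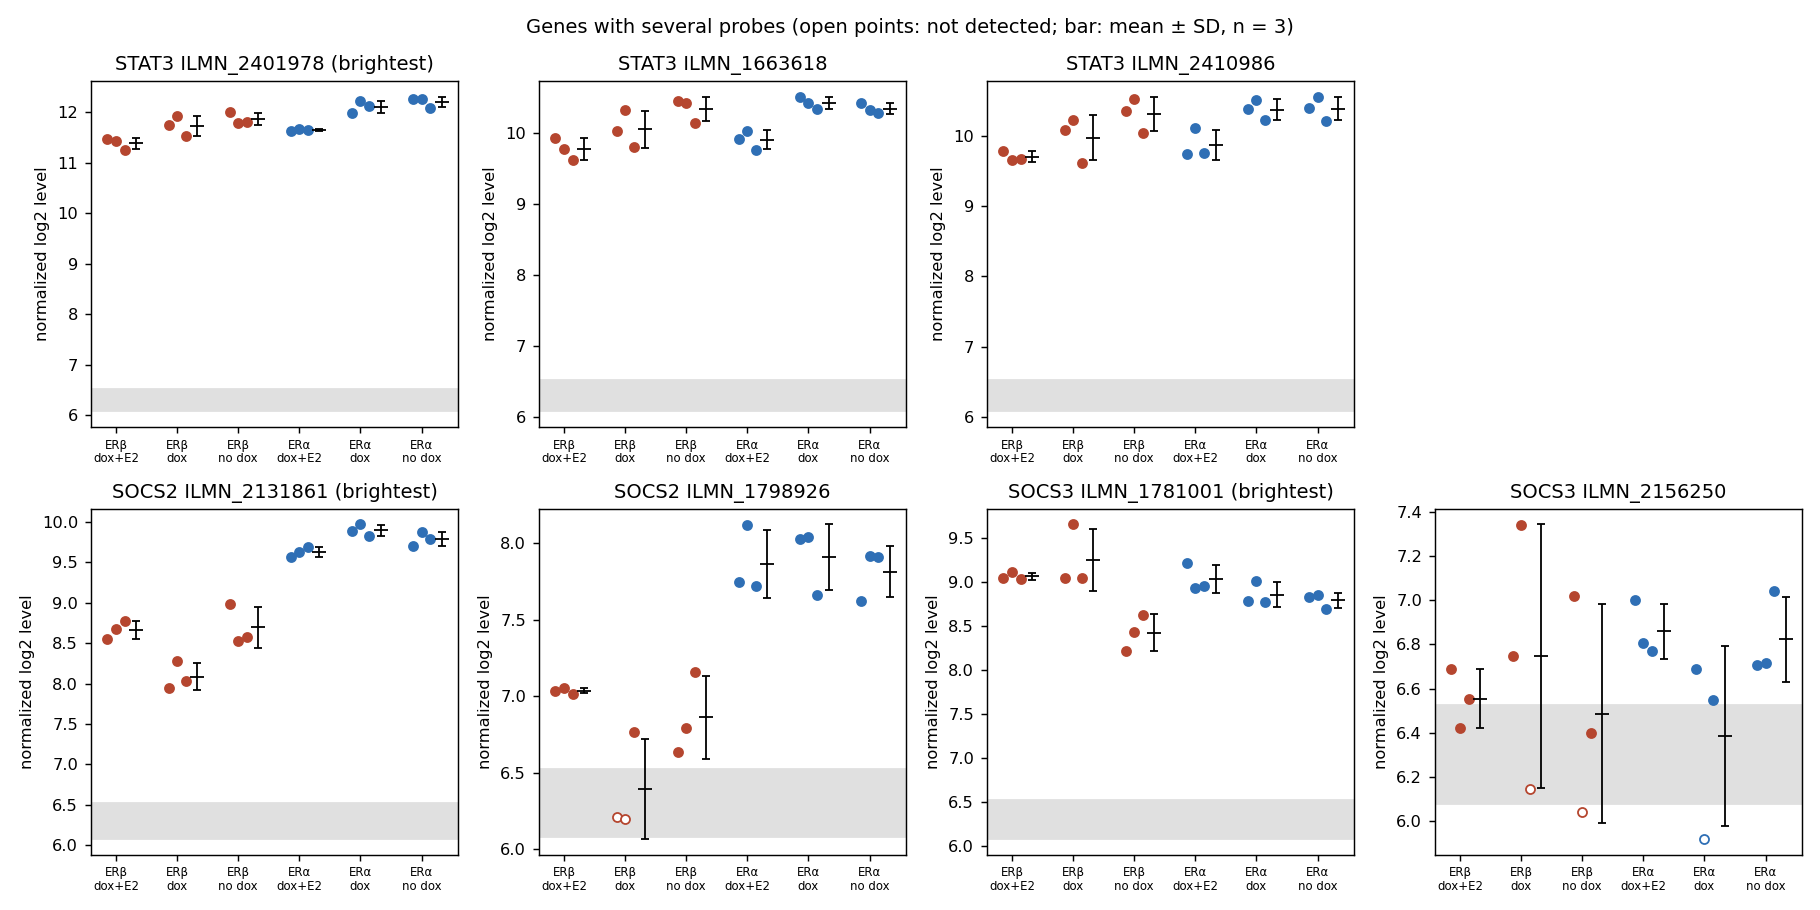
Normalized log2 level (y axis, not starting at 0) of every kept probe of STAT3, SOCS2 and SOCS3 in the 6 groups (x axis), 1 point per array, with mean ± SD (n = 3). Open points were not detected, and the grey band spans 6.08 to 6.52. The second SOCS3 probe lies near the band, with points below, in and above it (5.92 to 7.34), and stands at 6.75 ± 0.60 in ERβ cells with doxycycline and 6.49 ± 0.50 without it.

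Taken by treatment, doxycycline alone changed 3 of the 8 genes in the ERβ line, with SOCS3 and STAT6 higher and SOCS2 lower, against 20.6% of all genes (2 higher against 9.9%, 1 lower against 10.7%). With 1 array left out in turn, the count there ranged between 2 and 4, and it was 1 without replicate number 1. In the ERα line limma called 0 of the 8 genes, and 0 had an unadjusted p below 0.05, against 0.0148% of all genes, which is 2 of 13505 (0.0074% higher and 0.0074% lower). At an unadjusted p below 0.05 there were 705 such genes. The changes of the 8 genes with doxycycline in ERα cells lay between -0.15 and 0.11. The median over the 8 genes was 0.24 in the ERβ line and -0.06 in the ERα line, beside -0.04 and 0.00 over all genes.

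**Figure D3:**
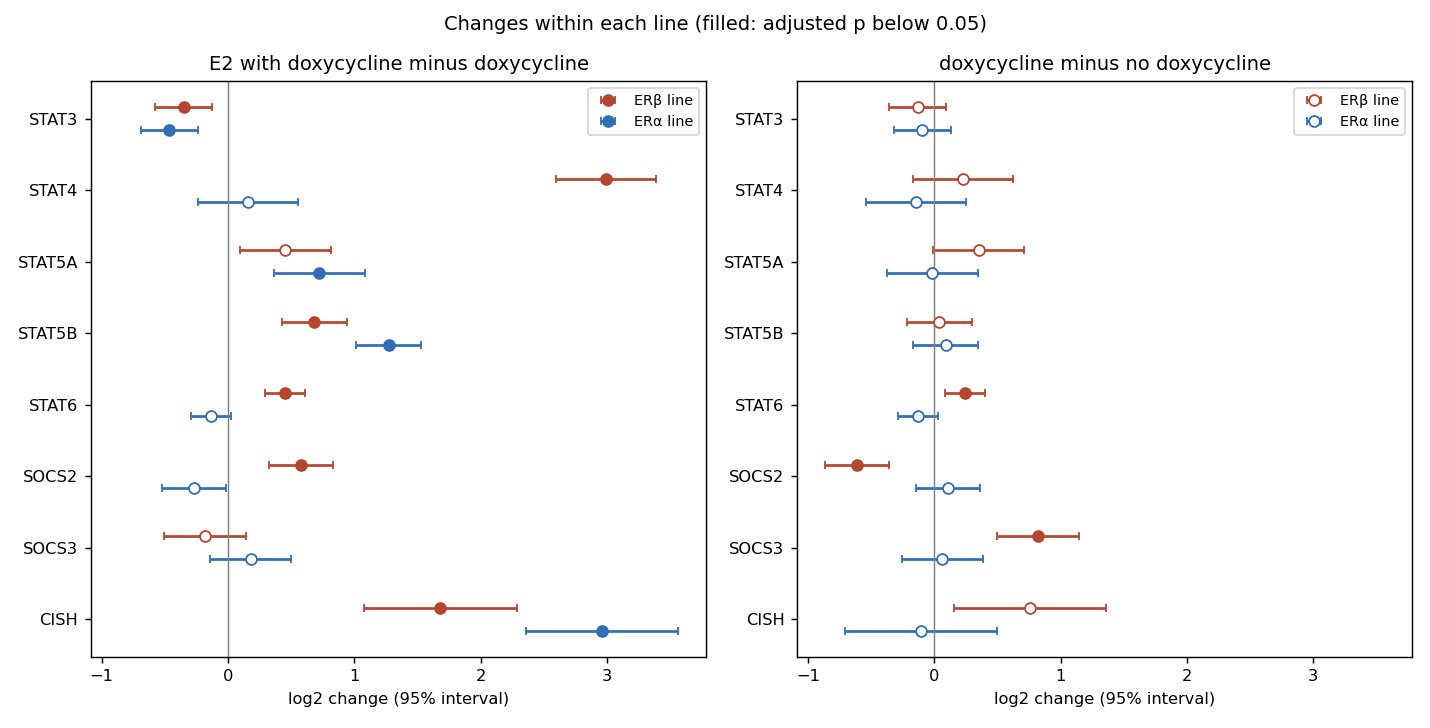
Log2 change (x axis) of each gene (y axis) with its 95% interval, for doxycycline plus E2 minus doxycycline alone (left) and doxycycline minus no doxycycline (right), with the ERβ line in red above the ERα line in blue. Filled points have an adjusted p below 0.05. STAT4 stands at 2.99 in the ERβ line and 0.16 in the ERα line with E2, and no ERα point is filled for doxycycline.

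The responses were also compared directly between the lines. The response to E2 differed for 4 of the 8 genes, higher in the ERβ line for STAT4, SOCS2 and STAT6 and lower for STAT5B, against 8.69% of all genes (3 higher against 3.37%, 1 lower against 5.32%). The response to doxycycline differed for 3, higher in the ERβ line for SOCS3 and STAT6 and lower for SOCS2, against 9.66% of all genes (2 higher against 5.34%, 1 lower against 4.32%). With 1 array left out, the counts ranged between 3 and 5 for E2 and between 1 and 3 for doxycycline. Without all arrays of 1 replicate number they were 1 or 2 for E2 and 0 to 2 for doxycycline. Without doxycycline 4 of the 8 genes differed between the lines, STAT5A higher in ERβ cells and STAT4, SOCS2 and STAT3 lower, against 50.5% of all genes (1 higher against 26.4%, 3 lower against 24.1%), a share at the background. For STAT5B, STAT6 and CISH the untreated lines differed by 0.10, -0.07 and -0.06, with 95% intervals of -0.16 to 0.36, -0.23 to 0.09 and -0.67 to 0.54, the last between arrays below detection.

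**Figure D4:**
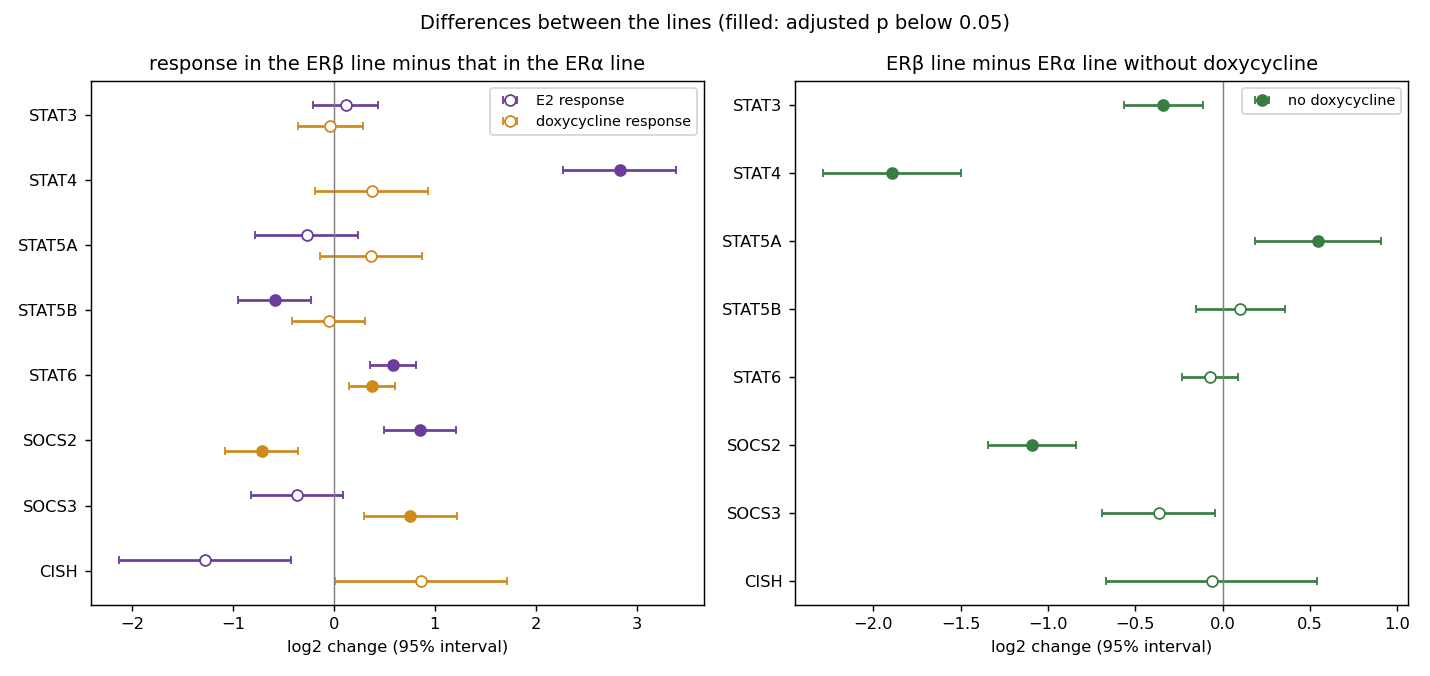
Differences between the lines on the log2 scale (x axis) for each gene (y axis) with 95% intervals. Left, the response in the ERβ line minus that in the ERα line, to E2 in purple and to doxycycline in orange. Right, the ERβ line minus the ERα line without doxycycline. Filled points have an adjusted p below 0.05, and SOCS2 is filled in all 3, at 0.85, -0.72 and -1.09.

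Other genes of the pathway were read from lists by role, against the share of all genes called that is given above. This background was 13.8% with E2 in ERβ cells, 22% with E2 in ERα cells and 20.6% with doxycycline in ERβ cells. With doxycycline in ERα cells it was 0.0148%, so 0 calls there are no result about a list. Of 5 other measured STAT and SOCS genes, SOCS1, a direct inhibitor of JAK kinases, stood apart. It had levels of 9.36, 9.24 and 9.31 in ERβ cells with E2, against 7.62, 7.44 and 7.69 with doxycycline alone (1.72 ± 0.11, adjusted p = 4.54e-08). In ERα cells it was lower with E2, at 9.10, 9.29 and 9.08, against 9.75, 9.78 and 9.80 (-0.62 ± 0.11, adjusted p = 0.000453). The responses therefore had opposite signs and differed by 2.34 ± 0.15 (adjusted p = 1.25e-07). Like STAT4, SOCS1 was lower in the ERβ line without doxycycline (-2.09 ± 0.11, adjusted p = 5.48e-10). The list had 1 gene higher and 0 lower with E2 in ERβ cells, 1 higher and 2 lower in ERα cells, where ERα array 5, 8 or 9 left out reduced the 3 calls to 1, and 0 called with doxycycline in either line.

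Among 3 measured JAK kinases, JAK1 and JAK2 rose with doxycycline in ERβ cells, by 0.47 ± 0.12 (adjusted p = 0.0122) and 0.37 ± 0.10 (adjusted p = 0.015). JAK1 lost its call without ERβ array 5 (0.0611) and JAK2 without ERβ array 1 or 6 (0.0776 and 0.063), and both with only the compared arrays in the fit (0.0682 and 0.0898). JAK2 stood at 8.61, 8.79 and 8.57 with E2 in ERβ cells, against 8.25, 8.25 and 8.43 with doxycycline alone (0.35 ± 0.10, adjusted p = 0.029), a call lost without ERβ array 4, 5, 7 or 8 (0.0529 to 0.129) and with median scaling (0.132). Its E2 responses differed between the lines by 0.62 ± 0.14 (adjusted p = 0.0111), a call lost with median scaling (0.102). Without doxycycline JAK2 was lower in the ERβ line by -1.05 ± 0.10 (adjusted p = 5.53e-07).

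Of 28 measured receptors that signal through JAK kinases, 0 were higher and 4 lower with E2 in ERβ cells, and 3 were higher and 5 lower in ERα cells. The list's share in ERβ cells was near the background, and its median change was -0.12 in ERβ cells and -0.05 in ERα cells. One array left out reduced these calls to 2 of 28 (ERβ array 5, 7 or 9) and to 5 of 28 (ERα array 4, 5 or 9). EPOR, the erythropoietin receptor that activates STAT5, fell in both lines, by -0.65 ± 0.12 in ERβ cells (adjusted p = 0.00179) and by -0.80 ± 0.12 in ERα cells (adjusted p = 0.000168). With doxycycline in ERβ cells 6 were higher and 3 lower. IL4R, the interleukin 4 receptor that activates STAT6, had levels of 10.12, 10.44 and 9.74 with doxycycline in ERβ cells, against 8.24, 8.75 and 8.51 without it (1.60 ± 0.24, adjusted p = 0.000194), and it rose with E2 in ERα cells by 1.22 ± 0.24 (adjusted p = 0.00156). IL7R, the interleukin 7 receptor that activates STAT5, rose with doxycycline in ERβ cells by 1.45 ± 0.11 (adjusted p = 2.06e-07).

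Of 13 measured ligands, 2 were higher and 3 lower with E2 in ERβ cells, 2 higher and 1 lower in ERα cells, and 1 higher and 2 lower with doxycycline in ERβ cells. IL6, the classical STAT3 activator, stood at 7.90, 7.85 and 7.73 with doxycycline plus E2 in ERβ cells, at 9.84, 10.05 and 9.06 with doxycycline and at 11.31, 10.84 and 11.11 without it, so both treatments lowered it (-1.83 ± 0.20 and -1.43 ± 0.20, adjusted p = 1.78e-05 and 0.000119). Without doxycycline it was higher in the ERβ line by 3.58 ± 0.20 (adjusted p = 2.31e-09), opposite in direction to STAT4, SOCS1 and SOCS2. LIF, a further ligand of the list, went the other way from IL6 in both. It rose with doxycycline in ERβ cells by 0.84 ± 0.16 (adjusted p = 0.00118). Without doxycycline LIF was lower in the ERβ line by -2.11 ± 0.16 (adjusted p = 3.41e-08). IL24, which signals through STAT3, rose with E2 in both lines, by 2.08 ± 0.16 in ERβ cells and 1.52 ± 0.16 in ERα cells (adjusted p = 3.82e-07 and 4.01e-06). IL12A, a subunit of the STAT4 activator interleukin 12, and IL11, a STAT3 activator, each moved in opposite directions in the 2 lines. IL12A changed by -0.98 ± 0.20 in ERβ cells (adjusted p = 0.00309) and at least 2.50-fold upward in ERα cells (fitted 1.83 ± 0.20, adjusted p = 5.76e-06), and IL11 by 0.70 ± 0.12 and -0.68 ± 0.12 (adjusted p = 0.000688 and 0.000467). With only the compared arrays in the fit IL12A did not pass in ERβ cells (0.068).

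Among 9 other negative regulators, 0 were higher and 1 lower with E2 in ERβ cells, 1 higher and 1 lower in ERα cells, and 2 higher and 0 lower with doxycycline in ERβ cells, all near the background. Without 1 array the call in ERβ cells with E2 was lost (ERβ array 4, 5 or 9), and those in ERα cells fell to 1 (any of ERα arrays 4 to 9). PTPN1, a tyrosine phosphatase that acts on JAK2, rose with doxycycline in ERβ cells by 1.03 ± 0.11 (adjusted p = 6.29e-06) and was the gene lower with E2 there (-0.37 ± 0.11, adjusted p = 0.0375). In ERα cells E2 gave a rise of 0.40 ± 0.11 (adjusted p = 0.0161, lost without ERα array 7), and the responses differed by -0.77 ± 0.16 (adjusted p = 0.00503). Of 10 partners and adaptors, IRF9, the DNA-binding partner of STAT2, fell with E2 in ERα cells (-0.71 ± 0.14, adjusted p = 0.00136), and the adaptor STAM rose with E2 in ERβ cells (0.73 ± 0.12, adjusted p = 0.00089). Those were the single calls of that list in each E2 comparison, with a second called without ERα array 9 or ERβ array 9, and none was called with doxycycline.

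Known target genes of each STAT were listed too, leaving aside whether the STAT acts on them in these cells. Of 15 measured STAT3 targets, 4 were higher and 1 lower with E2 in ERβ cells, and 5 higher and 2 lower in ERα cells. With doxycycline in ERβ cells 8 were higher and 1 lower, a median of 0.33, but without ERβ array 5 these 9 calls became 5, and without ERβ array 6 the 5 calls with E2 became 3. PIM1, a survival kinase that is also a STAT5 target, stood at 13.54, 13.55 and 13.49 with doxycycline plus E2 in ERβ cells, at 12.69, 12.93 and 12.53 with doxycycline and at 10.88, 11.07 and 10.97 without it, and both steps passed (0.81 ± 0.11 and 1.74 ± 0.11, adjusted p = 0.000144 and 2.63e-08). VEGFA, an angiogenic factor, fell with doxycycline in ERβ cells by -1.18 ± 0.19 (adjusted p = 0.000339). CCND1, the cell cycle gene cyclin D1 on both target lists, rose with E2 by 0.80 ± 0.11 in ERβ cells and 0.85 ± 0.11 in ERα cells (adjusted p = 0.000138 and 3.58e-05).

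Of 8 measured STAT5 targets, 2 were higher and 0 lower with E2 in ERβ cells, and 3 were higher and 3 lower in ERα cells, where STAT5B and STAT5A both rose. The 2 higher in ERβ cells were PIM1 and CCND1, already counted among the STAT3 targets. CCND1 was also among the 3 higher in ERα cells. ID1, an inhibitor of helix-loop-helix factors, fell with E2 in ERα cells (-1.53 ± 0.17, adjusted p = 7.93e-06), and BCL2L1, a survival gene, fell too (-0.52 ± 0.11, adjusted p = 0.00193). With doxycycline in ERβ cells 2 were higher and 0 lower, and PIM1 stayed the single call with any of 12 arrays left out.

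Of 8 measured STAT4 targets, 1 was higher and 1 lower with E2 in ERβ cells, the 2 genes GADD45G and IRF1, and both calls were lost without ERβ array 4, 5 or 9. GADD45G was detected on 0 of 3 arrays in both of these groups, so its call there compares levels below the detection limit. In ERα cells 2 were higher and 0 lower, GADD45G and IL18R1, with 1 call without any of ERα arrays 4 to 7. GADD45G, a growth arrest gene, rose at least 1.85-fold with E2 in ERα cells (fitted 2.03 ± 0.19, adjusted p = 1.26e-06). No difference between the lines is given for it, since 3 of the 4 groups had no detected array. With doxycycline 0 of the 8 were called in either line.

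Of 6 measured STAT6 targets, a list that holds CISH and IL4R, 1 was higher and 0 lower with E2 in ERβ cells, and that 1 was CISH itself. In ERα cells 2 were higher, CISH and IL4R, and 1 lower. The higher calls with E2 thus repeat results given above. With doxycycline in ERβ cells 1 was higher, IL4R, and 1 lower, CCL26, the chemokine eotaxin-3 (-1.11 ± 0.15, adjusted p = 6.31e-05). Of 17 measured targets of the STAT2 and IRF9 complex, 9 were higher and 0 lower with doxycycline in ERβ cells, a median of 0.79. They were led by RSAD2, an antiviral enzyme (3.05 ± 0.15, adjusted p = 1.29e-09), and ISG15, a ubiquitin-like modifier (2.75 ± 0.22, adjusted p = 3.72e-07). Without doxycycline 12 of the 17 were already higher in the ERβ line than in the ERα line and 0 lower. Their median difference there was 1.41, and 26.4% of all genes were higher. E2 in ERβ cells had 0 higher and 3 lower, and E2 in ERα cells 1 higher and 1 lower, which became 5 calls without ERβ array 5 or 6. None of the listed target genes was called with doxycycline in the ERα line, where 0.0148% of all genes were.

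**Figure D5:**
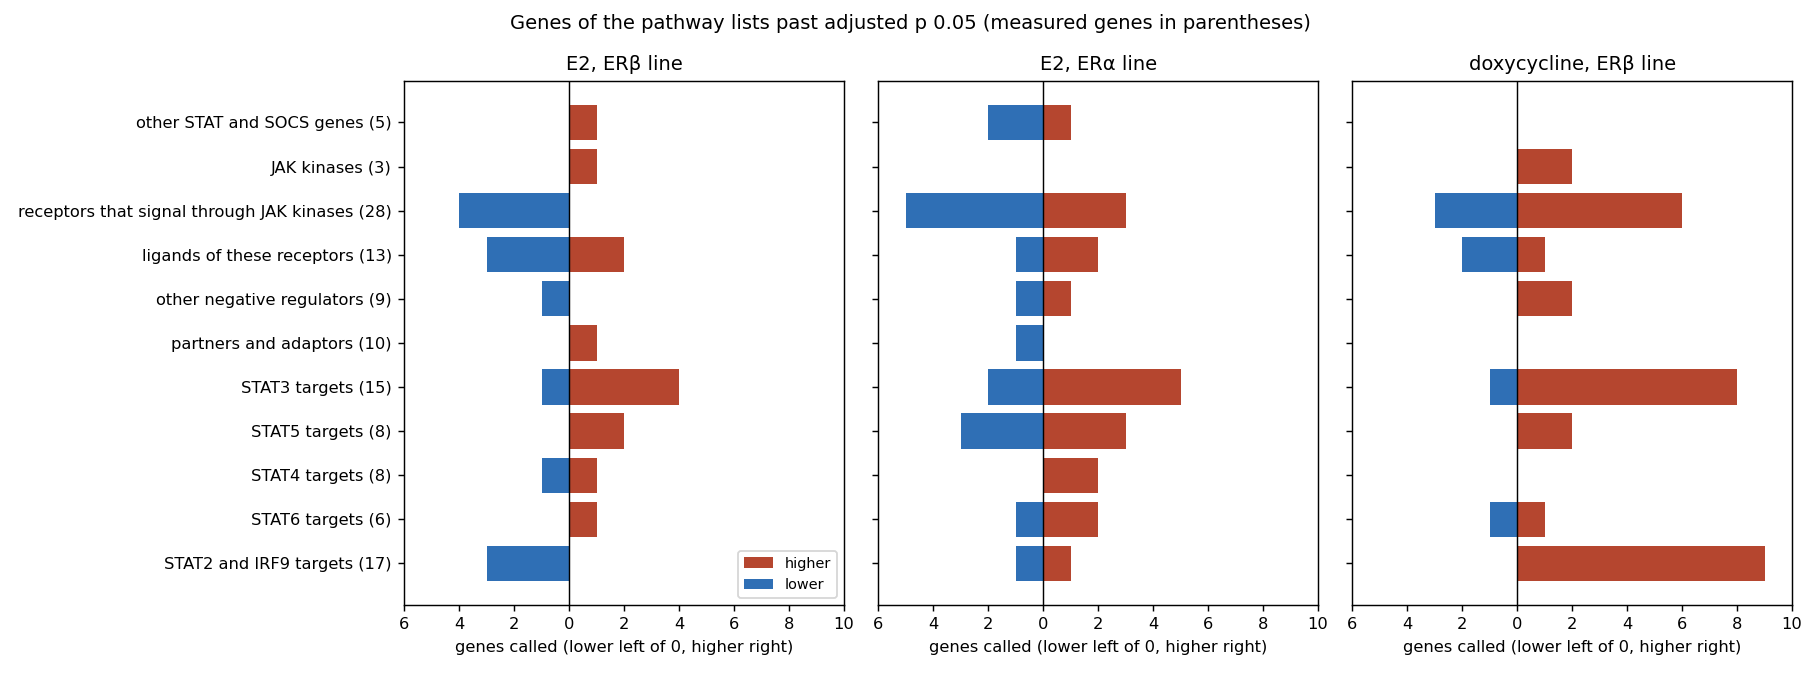
Number of genes of each pathway list past an adjusted p of 0.05 (x axis, higher to the right of 0 and lower to the left) for E2 in each line (ERβ, ERα) and for doxycycline in ERβ cells, with the number of measured genes of each list in parentheses (y axis). With doxycycline in the ERβ line, 8 STAT3 targets and 9 STAT2 and IRF9 targets are higher.

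The genes whose levels over the 18 arrays were most like those of the 2 widest-ranging members are given as a description, since arrays of a group share their treatment. Closest to STAT4 were IGSF11, an adhesion protein (Pearson r = 0.953), ZBTB5, a zinc finger factor (0.941), and VPS8, a vesicle transport subunit (0.920). IGSF11 averaged 11.24 in ERβ cells with E2, 9.62 with doxycycline and 9.86 without it, and in ERα cells 10.73, 10.44 and 10.36 in the same order. Closest to CISH were ITPK1, an inositol phosphate kinase (r = 0.974), WNT4, a secreted Wnt ligand (0.969), and MYLK3, a myosin light chain kinase (0.968). ITPK1 averaged 10.76, 9.92 and 9.53 in ERβ cells with E2, with doxycycline and without it, and 11.20, 9.50 and 9.44 in ERα cells.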

How the data were processed

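Total RNA was labelled and read on 18 single-colour Illumina arrays (6 groups of 3), per the labels' protocols. The authors deposited non-normalized probe intensities and a detection p-value per probe and array, per the file headers, and also a table of normalized intensities. The submitters' processing notes name the tool lumi, without its version or the steps taken. Columns were mapped to samples for arrays without doxycycline and to groups for the others. Of 48803 probes, 27578 carried 1 gene symbol, 13 several and 21212 none, and no gene was named from the latter kinds.

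Intensities were corrected and quantile normalized with neqc in limma 3.58.1 (R 4.3.3; normexp by detection p, offset 16, log2). Probes detected at p below 0.01 on 3 or more arrays were kept (24226), and a gene was read by its kept probe of highest mean. All 18 arrays were fitted with 6 group means (lmFit, eBayes) and p-values adjusted by Benjamini-Hochberg over 13505 genes, with further probes of a member over all kept probes. Where 1 of 2 groups had no detected array, a bound against that group's detection limit stands beside the fitted change; differences between responses have none. The fit was tested on simulated data. Within-group correlations between arrays were 0.984 to 0.994, no 2 arrays held identical values and the median SE of a change was 0.139. The alternatives tried were the authors' processed values, the replicate number as a block, no background correction, median scaling, 2 other detection filters, the mean of a gene's probes, only the compared arrays in the fit, and leaving out arrays.

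The members, gene lists and tests were chosen with earlier results of these data known. Named from each list were up to 4 called genes per comparison with the largest change and groups that do not overlap, of which part is printed, and JAK1, JAK2, IRF1 and IL18R1 where a count is of few genes. For the 2 members of widest range the 3 genes of highest correlation were named. STAT2 was not analysed here.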

Additional observations from a re-analysis of the deposited data

Results flagged for a closer look

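Responses that differed between the ERβ and the ERα line by the test of the difference itself (limma, ERβ minus ERα) are collected here. For E2 the differences were 2.83 for STAT4 (adjusted p = 6.25e-06), 0.85 for SOCS2 (0.00402), 0.58 for STAT6 (0.00221) and -0.59 for STAT5B (0.0435). For doxycycline they were -0.72 for SOCS2 (0.0118), 0.76 for SOCS3 (0.0361) and 0.37 for STAT6 (0.0377). Those of STAT5B with E2 and of SOCS3 and STAT6 with doxycycline each lost their call when 1 of 7 or more arrays was left out. With all arrays of 1 replicate number left out, the E2 differences of STAT6 (without number 1 or 2) and SOCS2 (without 1 or 3) and the doxycycline difference of SOCS2 (without 1 or 3) lost theirs too, and that of STAT4 did not. The second SOCS2 probe passed for neither difference (0.148 with E2 and 0.246 with doxycycline, over all kept probes). Nor did the second SOCS3 probe pass for doxycycline (0.423). Clone, vector and receptor cannot be told apart in these differences, since each receptor was carried by 1 line.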

How the results depend on the processing

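Over the 8 genes and 7 comparisons, no called change turned its sign in any setting tried. With another setting 456 values kept their side of the threshold, 20 lost a call and 14 gained one, and with arrays left out 1091 kept it, 75 lost a call and 10 gained one. Counts over all genes were 1867 (E2, ERβ), 2975 (E2, ERα), 2776 (doxycycline, ERβ), 2 (doxycycline, ERα), 1174 (difference for E2), 1305 (difference for doxycycline) and 6821 (lines without doxycycline). On the authors' processed values the first 6 were 3180, 4683, 4648, 34, 2495 and 2759. With only the compared arrays in the fit, E2 in ERβ cells gave 1070, doxycycline 1548 in ERβ cells and 0 in ERα cells. With the replicate block the difference for doxycycline gave 1969, and on the authors' values with the replicate block the differences gave 1875 (E2) and 2106 (doxycycline). The cause was not tested, except that fewer arrays were fitted where arrays were left out.

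Leaving out 1 array gave 1389 to 1975, 2346 to 3150, 2013 to 2942, 2 to 3, 941 to 1287, 1048 to 1327 and 6159 to 6924 in the same order, and leaving out 1 replicate number gave 653 to 1314, 1458 to 2342, 1017 to 2456, 0 to 2, 305 to 682, 411 to 966 and 4693 to 6195. Arrays of equal replicate number deviated together at a median correlation of 0.378 (0.0608 to 0.606, 45 pairs of arrays) in the values normalized here. In the authors' values the median was -0.187 (-0.382 to 0.0451). The main fit held no term for the number, so a shift shared by arrays of equal number stays in its spread. With the number as a block the counts were 2531 (E2, ERβ), 3841 (E2, ERα) and 3784 (doxycycline, ERβ). The labels do not say what the numbers stand for. For doxycycline and E2 arrays the number came from the closest authors' column. Probes near the detection limit, CISH and the second SOCS3 probe above all, give imprecise low values.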
